A study of Mus musculus with 4 samples.

Results

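The 9 genes described here, Sox1, Sox3, Sox11, Sox21, Pax6, Neurog2, Hes5, Pou3f2 and Nes, are markers and regulators of the earliest neural progenitors. They were taken from the arrays by gene name, with no threshold on a measured value, and they are read by 13 of 55681 probes and belong to 36039 gene names in all. RNA of the mouse embryonic stem (ES) cell line E14Tg2A (strain 129/Ola) was hybridised to 4 single-colour oligonucleotide arrays, 1 per group. The first group was untreated ES cells at day 0, grown on gelatin with serum and the cytokine LIF. The second was untreated epiblast-like aggregates (ELA), made by letting the same cells float for 2 days in a minimal medium with N2 and B27 supplements and without LIF or serum. The third was ELA formed over the same 2 days in the presence of 50 nM 5-azacytidine (AZA), which blocks DNA methyltransferases. The last was ELA formed with 100 µM 5-carboxy-8-hydroxyquinoline (CHQ), an inhibitor of histone lysine demethylases. All groups come from 1 established line, and RNA of 3 experiments was pooled before each hybridisation, so the spread between experiments cannot be seen and no test across arrays exists. In bulk RNA of this kind, fewer cells with a transcript and less transcript per cell cannot be told apart.

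ES cells leave the naive state, pass through an epiblast-like primed state, and in the absence of other signals move towards neuroectoderm. Transcription factors of the SoxB1 group (Sox1, Sox2 and Sox3) keep cells in a progenitor state, SoxB2 factors such as Sox21 oppose them, and SoxC factors such as Sox11 act in progenitors and young neurons. Pax6 and the POU factor Pou3f2 (Brn2) pattern and maintain progenitors, Hes5 is a repressor switched on by Notch signalling, Neurog2 is a proneural factor that drives neuronal commitment, and Nes encodes the intermediate filament nestin. The comparison of ELA with ES cells asks which of these genes differ in the primed state, and the comparisons with AZA and CHQ ask what becomes of them when DNA methylation or histone demethylation is inhibited during ELA formation.

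Promoters are shown for 4 of the genes because AZA acts on cytosine methylation, which in mammals falls mainly on CpG dinucleotides, and because the Hes5 promoter is the classic target of Notch signalling. Each sequence is the 250 bases before the annotated start on the gene's own strand, from RefSeq (build GRCm38.p6). Capitals mark every CpG in the windows of Sox1 (chr8:12395269-12395518, plus strand), Sox11 (chr12:27342719-27342968, minus strand) and Sox21 (chr14:118237031-118237280, minus strand). In the window of Hes5 (chr4:154960673-154960922, plus strand) they mark the letters TGGGAA or their reverse complement, the core bound by the Notch effector RBPJ.
Sox1: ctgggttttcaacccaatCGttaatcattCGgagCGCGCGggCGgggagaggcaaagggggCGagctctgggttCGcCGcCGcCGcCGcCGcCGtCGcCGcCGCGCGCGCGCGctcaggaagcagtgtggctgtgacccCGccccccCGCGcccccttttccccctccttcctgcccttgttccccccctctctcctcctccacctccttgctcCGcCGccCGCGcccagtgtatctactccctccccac
Sox11: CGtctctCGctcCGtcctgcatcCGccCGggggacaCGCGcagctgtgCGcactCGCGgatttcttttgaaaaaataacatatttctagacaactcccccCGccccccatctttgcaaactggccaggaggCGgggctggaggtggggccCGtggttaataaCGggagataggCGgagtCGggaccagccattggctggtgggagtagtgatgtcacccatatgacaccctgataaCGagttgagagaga
Sox21: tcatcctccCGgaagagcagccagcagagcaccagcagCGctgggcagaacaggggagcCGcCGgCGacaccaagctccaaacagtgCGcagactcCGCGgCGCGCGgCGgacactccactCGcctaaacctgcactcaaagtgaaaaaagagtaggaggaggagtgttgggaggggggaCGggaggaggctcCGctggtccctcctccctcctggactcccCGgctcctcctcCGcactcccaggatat
Hes5: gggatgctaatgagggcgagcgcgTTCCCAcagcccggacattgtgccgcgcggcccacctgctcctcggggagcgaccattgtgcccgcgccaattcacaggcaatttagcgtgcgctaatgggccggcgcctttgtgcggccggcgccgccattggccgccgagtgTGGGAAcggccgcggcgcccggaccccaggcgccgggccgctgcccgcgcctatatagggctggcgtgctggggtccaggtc

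The windows held 29 CpG for Sox1, 17 for Sox11, 17 for Sox21 and 32 for Hes5, against a median of 6 over the 32851 promoter windows of the same length. Of the 9 genes, 8 had a promoter in the table used, with 9 windows in all since Pax6 had a pair of them. The other windows held 15 CpG in both of Pax6, 8 in Neurog2, 18 in Pou3f2 and 15 in Nes, so every window was above the median of all promoters. The RBPJ letters, searched on both strands, occurred in Hes5 only among these windows, at 226 and 82 bases before the start. Of all windows, 21.6% held them at least once and 2.77% held 2 or more. The SOX letters ACAAAG or ACAATG, searched on both strands, occurred 3 times in the Hes5 window, at 211, 172 and 118 bases before the start and without overlap with the RBPJ letters. They occurred once in 1 of the Pax6 windows, and 25.2% of all windows held them at least once. The arrays measured neither methylation nor binding, so these are features of the sequences only.

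Levels are log2 intensities after background correction and quantile normalisation over the 4 arrays, and a difference between arrays is a difference of such log2 levels. A gene was called different when its brightest probe differed by at least 1 (2-fold), had a mean level of at least 7.5 over the 2 arrays compared, and stood well above background on either. Genes that met the last 2 conditions are said here to be bright enough to be called. Repeated spots of a probe within an array had a pooled SD of 0.15, which gives 0.21 for a difference, and this covers spot noise only. ES and ELA shared 1 slide and scan, while both treated arrays shared another. A treatment and the change of slide therefore cannot be told apart in AZA minus ELA and in CHQ minus ELA, whereas ELA minus ES and CHQ minus AZA are differences within a slide. The median local background was 59 and 77 on ES and ELA but 14 and 13 with AZA and CHQ, and 60.57%, 55.11%, 69.09% and 69.23% of gene spots were well above it in that order. The labels were matched by their markers: all 9 naive pluripotency genes listed were lower in ELA than in ES cells, for instance Nr0b1 at -3.90, and the primed epiblast gene Fgf5 was 2.86 higher.

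**Figure D1:**
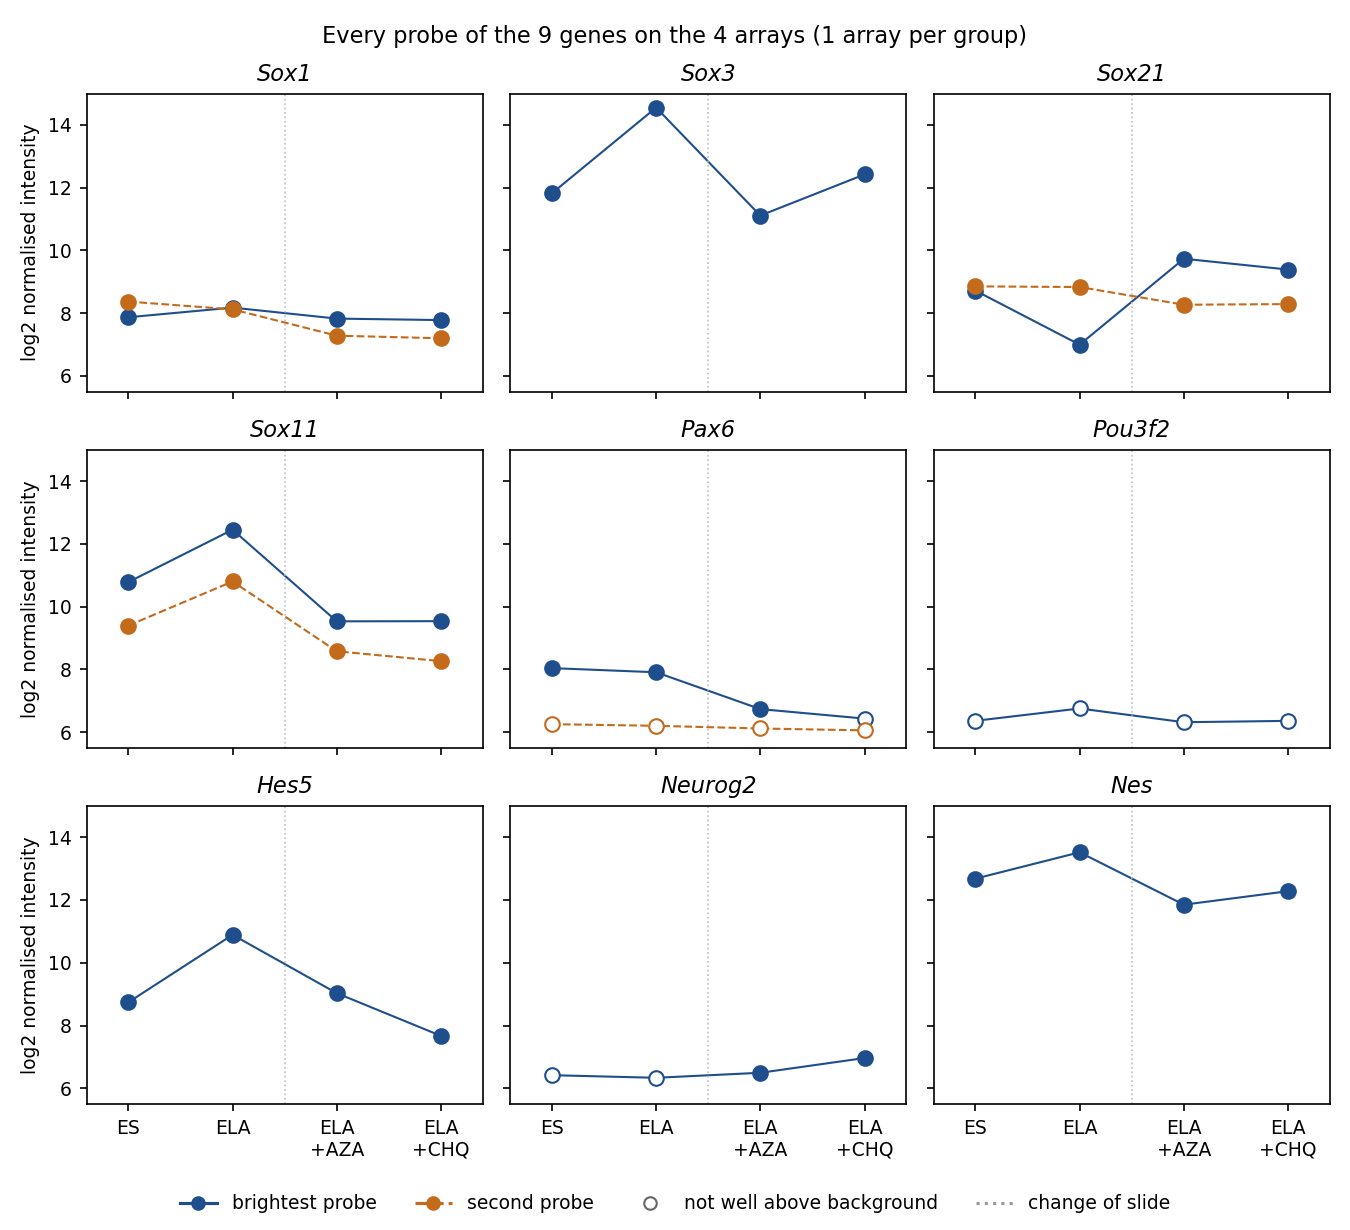
Log2 normalised intensity (vertical axis) of each of the 13 probes of the 9 genes on the 4 arrays (horizontal axis), with hollow points where the probe was not well above background and a dotted line where the slide changes. Sox3, Sox11, Hes5 and Nes peak on the ELA array, the probes of Sox21 part from each other, and Pou3f2 stays near background throughout.

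Sox3, the SoxB1 gene that is widely active in epiblast and early neural plate, had levels of 11.82 in ES cells, 14.55 in ELA, 11.11 with AZA and 12.42 with CHQ, from its only probe (mm9, chrX:58144564-58144623). ELA stood above the other 3 arrays, and the levels of CHQ, ES and AZA followed with gaps of 0.60 and 0.71, each under the 2-fold rule. Sox3 was 6.63-fold higher in ELA than in ES cells, 10.9-fold lower with AZA than in ELA and 4.36-fold lower with CHQ than in ELA. With CHQ it was 2.49-fold higher than with AZA (log2 difference 1.32), a difference within 1 slide.

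Sox1, whose onset marks commitment to the neural lineage, was called in no comparison. Its brighter probe (mm9, chr8:12399496-12399555) had 7.87 in ES cells, 8.18 in ELA, 7.83 with AZA and 7.78 with CHQ, a range of 0.40 over all arrays. The other probe (mm9, chr8:12397503-12397562) had 8.37, 8.12, 7.28 and 7.20. The probes had opposite signs between ELA and ES cells (0.31 and -0.25), and both were lower with each drug than in ELA by less than 2-fold, by -0.35 and -0.84 with AZA and by -0.40 and -0.92 with CHQ. On the second probe ES cells (8.37) and CHQ (7.20) were more than 2-fold apart. In RefSeq Sox1 overlaps the long noncoding RNA Sox1ot, and whether a probe also reads it was not tested.

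Sox2, the SoxB1 relative that ES cells also need for pluripotency, was not called in any comparison, with levels of 13.43 in ES cells, 12.77 in ELA, 13.76 with AZA and 13.41 with CHQ. Its AZA minus ELA difference of 0.99 lay just under the rule and had the opposite sign to that of Sox3 (-3.44).

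The 2 probes of Sox21 gave opposite accounts, so no direction is drawn for this SoxB2 gene. The brighter one (mm9, chr14:118633351-118633410) had 8.72 in ES cells, 6.996 in ELA, 9.73 with AZA and 9.39 with CHQ. It was therefore called lower in ELA than in ES cells (-1.72) and higher with AZA (2.74) and with CHQ (2.39) than in ELA. The other probe (mm9, chr14:118633788-118633847) had 8.85, 8.83, 8.27 and 8.29, with differences of -0.02, -0.56 and -0.54. On the ELA array the brighter probe had an intensity of 155 over a local background of 93, against intensities of 443 in ES cells, 812 with AZA and 668 with CHQ. Among 3785 genes with exactly 2 such probes, the median gap between the probes' differences was 0.16 between ELA and ES cells, 0.40 between AZA and ELA, and 0.42 between CHQ and ELA. The gaps of Sox21 were 1.70, 3.30 and 2.94, and only 0.502%, 0.37% and 0.608% of those genes had a gap as large. RefSeq places the long noncoding RNA Gm4675 over Sox21, and its part in either probe was not tested.

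Sox11, a SoxC gene of progenitors and immature neurons, was, like Sox3, highest in ELA, and was so on both of its probes. The brighter probe (mm9, chr12:28020087-28020146) had 10.78 in ES cells, 12.45 in ELA, 9.53 with AZA and 9.54 with CHQ. Its second probe (mm9, chr12:28019541-28019600) had 9.40, 10.80, 8.58 and 8.26. ELA was the highest array on both, ES cells the next, and the treated arrays lay below ES cells and differed from each other by 0.01 and -0.32. On the brighter probe Sox11 was 3.18-fold higher in ELA than in ES cells, 7.57-fold lower with AZA and 7.54-fold lower with CHQ than in ELA. That second probe gave 1.40, -2.22 and -2.54 on the log2 scale, all past the 2-fold rule as well. The SoxC relatives were lower with both drugs too: Sox4 by -1.31 with AZA and -1.51 with CHQ, and Sox12 by -1.08 and -1.50. All 3 probes of Sox4 were lower with each drug by more than 2-fold.

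Pax6, a paired-box factor of forebrain and eye progenitors, was faint. Its brighter probe (mm9, chr2:105536454-105536513, mean of 2 spots) had 8.04 in ES cells, 7.91 in ELA, 6.73 with AZA and 6.43 with CHQ, and on the CHQ array it was not well above background. ES cells and ELA differed by -0.13. The level was 2.26-fold lower with AZA than in ELA and at least 2.78-fold lower with CHQ, but neither could be called because the mean level lay under 7.5. The second probe, whose coordinates span 852 bases (mm9, chr2:105524098-105524949) and so cross a splice junction, was well above background on none of the arrays, with levels from 6.05 to 6.25. Pax6 overlaps Pax6os1 and Elp4 in RefSeq, and their part in the signal was not tested.

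Pou3f2 was well above background on no array, with levels of 6.36 in ES cells, 6.75 in ELA, 6.31 with AZA and 6.36 with CHQ (mm9, chr4:22414031-22414090). Its relative Pou3f1 (Oct6), a gene of the primed epiblast as well as of neural progenitors, was measured well above background on all 4 arrays, with 14.36, 15.19, 13.64 and 15.48. Pou3f1 was lower with AZA than in ELA (-1.55), was not called with CHQ (0.30), and was 1.84 higher with CHQ than with AZA.

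Hes5, the Notch target whose promoter holds the RBPJ letters shown above, had 8.74 in ES cells, 10.89 in ELA, 9.03 with AZA and 7.67 with CHQ, from its only probe (mm9, chr4:154336347-154336406). ELA was the highest array, AZA and ES cells differed by 0.29, and CHQ lay 1.07 below ES cells. Hes5 was 4.45-fold higher in ELA than in ES cells, 3.64-fold lower with AZA and 9.33-fold lower with CHQ than in ELA. Within the slide of the treated arrays it was 2.57-fold lower with CHQ than with AZA (-1.36), the opposite sign to Sox3.

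Neurog2 was not well above background in ES cells (6.42) or ELA (6.33) and was so with AZA (6.49) and CHQ (6.96), from 1 probe (mm9, chr3:127337805-127337864). Its raw intensity was 93.9 and 99.6 on ES and ELA, over local backgrounds of 58.0 and 82.0, and 43.0 and 80.7 with AZA and CHQ, over 13.0 and 13.0. The bound for CHQ over ELA is at least 1.17-fold. The lower background of the second slide moves with this detection, and its part was not tested.

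Nes, a common marker of neural progenitors that other dividing cells express as well, was bright on every array, with 12.68 in ES cells, 13.52 in ELA, 11.85 with AZA and 12.28 with CHQ (mm9, chr3:87784303-87784362). The step from ES cells to ELA (0.85) did not reach the 2-fold rule, while Nes was 3.18-fold lower with AZA and 2.37-fold lower with CHQ than in ELA. The treated arrays differed by 0.43, below the rule.

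From ES cells to ELA, 3 of the 9 genes were called higher (Sox3, Hes5 and Sox11) and 1 lower (Sox21, whose probes disagree), out of 7 bright enough to be called. Of the 18947 genes that could be called, 4.45% (844) were higher and 5.59% (1060) lower, and with scaling to the spike-in probes 317 were higher and 3897 lower of 20572. The median difference of the 9 genes was 0.39, against -0.02 over all 36039 gene names, and was 0.084 with spike-in scaling. The 0.39 is the value of Pou3f2, which was not above background on any array, so it says little about the set. The 9 values ran from -1.72 to 2.73, with Sox1, Pax6, Nes, Neurog2 and Pou3f2 under the rule.

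With AZA, 4 of the 9 genes were called lower than in ELA (Sox3, Sox11, Hes5 and Nes) and 1 higher (Sox21), out of 6 bright enough. The background for this comparison was large, with 14.3% (2731) of 19159 genes higher and 11.4% (2175) lower, and 2363 higher and 2850 lower with spike-in scaling. The median of the 9 genes was -1.17, against -0.04 over all gene names, and it is the value of Pax6, which was too dim to be called. With CHQ, the counts were again 4 lower (Hes5, Sox11, Sox3 and Nes) and 1 higher (Sox21) out of 6. Here 14.8% (2829) of 19163 genes were higher and 11.9% (2272) lower, against 2061 and 4209 with spike-in scaling, and the median of the 9 genes, the value of Nes, was -1.24 against -0.04 over all gene names. Both comparisons use the same ELA array and cross the slides, so the likeness of their lists is not separate evidence.

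Between the treated arrays, 2 of the 9 genes were called: Sox3 was higher with CHQ than with AZA and Hes5 was lower. Of 19196 genes, 5.53% (1061) were higher and 4.81% (923) lower, against 791 and 1108 with spike-in scaling, so 1 gene of 9 in each direction is a small count that says little about the set. The median of the 9 genes was 0.01. Sox11, Sox1, Sox21, Nes, Pax6, Neurog2 and Pou3f2 differed by less than 0.5 in either direction.

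**Figure D2:**
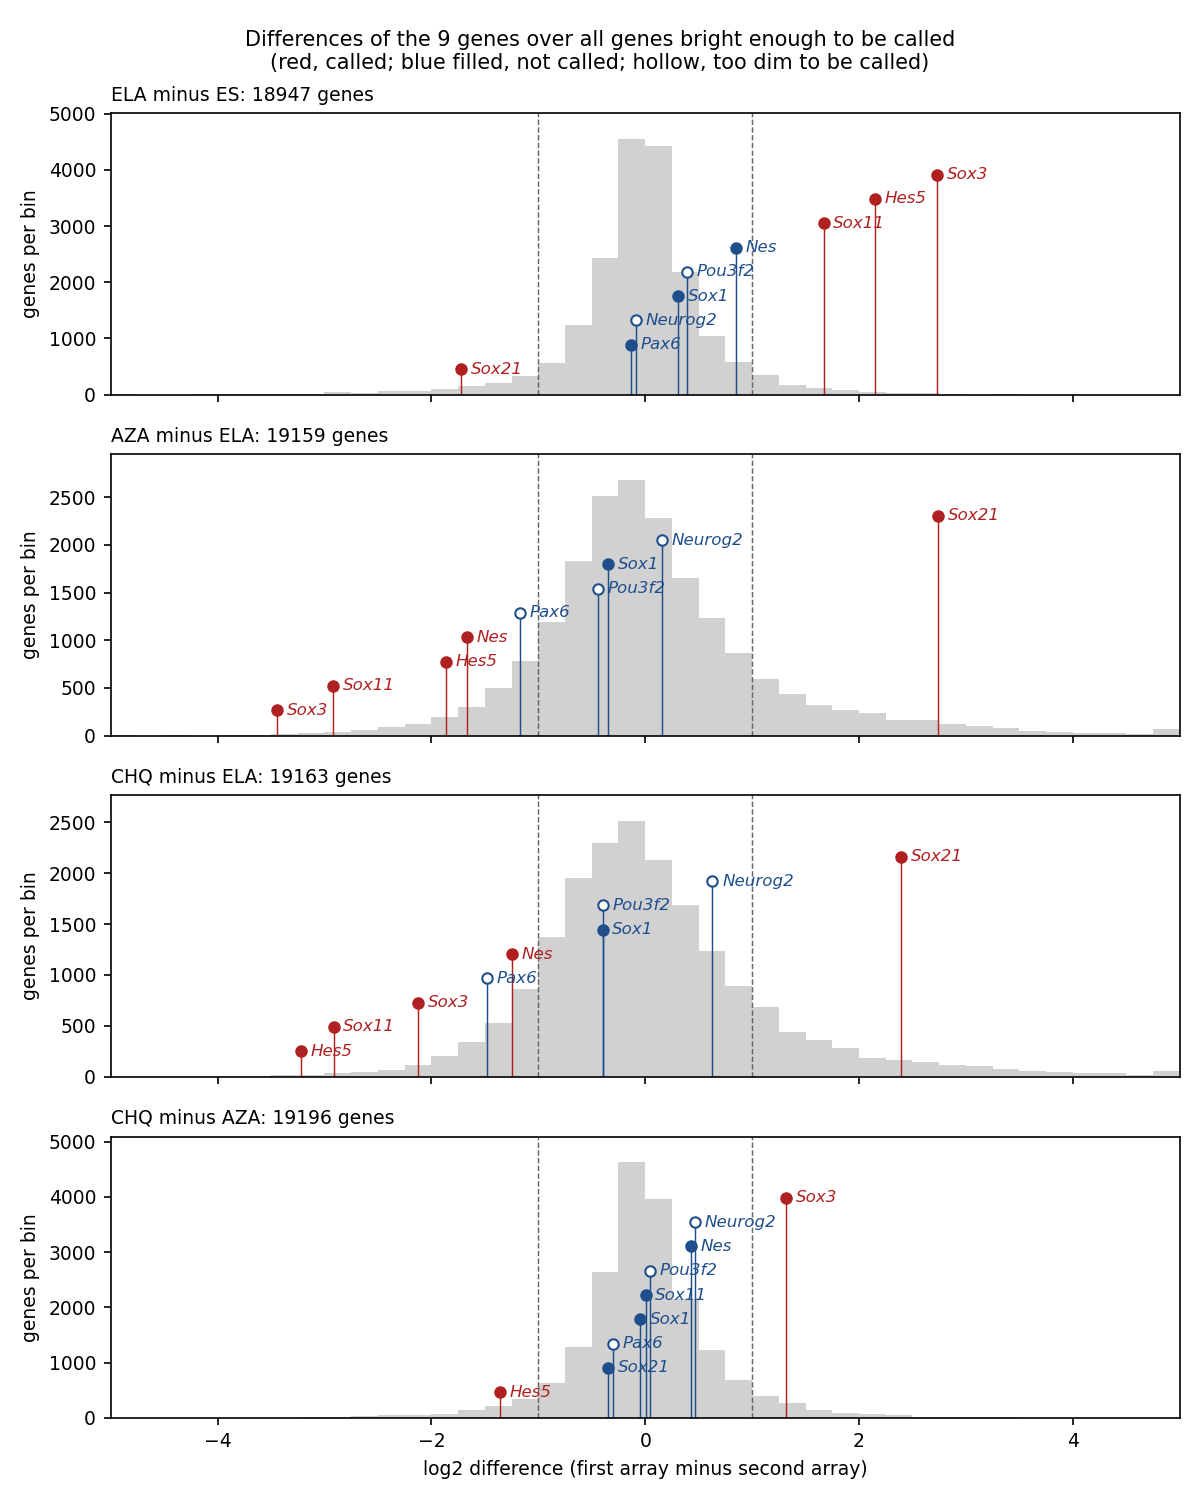
Log2 differences (horizontal axis) of the 9 genes in the 4 comparisons, drawn over histograms of all genes bright enough to be called (vertical axis, genes per bin of 0.25, with values beyond 5 placed in the end bins); the heights of the named points only separate the labels. Sox3, Sox11 and Hes5 lie right of the 2-fold line in ELA minus ES and left of it in both comparisons of a drug with ELA, and only Sox3 and Hes5 lie outside the lines in CHQ minus AZA.

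The transcription factors that act beside the 9 genes in the neural plate were mixed. For this and later lists, counts are to be read beside the shares of all genes that could be called. Those shares were 4.45% higher and 5.59% lower in ELA minus ES, and 14.3% and 11.4% in AZA minus ELA. They were 14.8% and 11.9% in CHQ minus ELA, and 5.53% and 4.81% in CHQ minus AZA. Of 24 neural plate regulators on the array, 6 were called higher and 2 lower in ELA than in ES cells. Zic2, a zinc-finger factor of the neural plate, was 2.46 higher, Lhx2, a LIM-homeodomain factor of forebrain and eye, was 2.01 higher, and Zfp521, which promotes the entry of ES cells into the neural lineage, was 1.71 higher. With AZA, 7 regulators were lower and 1 was higher than in ELA. On its brighter probe Zfp521 was at least 5.94-fold lower, since it was not well above background with AZA, and Zic2 was at -2.40. With CHQ, 5 were lower and 4 higher, with Zfp521 at -1.92 and Irx3 at 1.55. The dim second probe of Zfp521 gave 0.65 in ELA minus ES, -0.66 with AZA and -0.47 with CHQ. Irx3 (1.35), Lhx5 (1.22) and Zic2 (1.12) were the 3 higher with CHQ than with AZA, and none was lower. The list medians in these 4 comparisons were 0.53, -0.02, -0.09 and 0.41 over the members that could be called, and the first of these turned to -0.10 with spike-in scaling.

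Among 12 genes of the structure and adhesion of neural progenitors, 5 were called different between the drugs. In ELA, 3 of 12 were higher than in ES cells and none was lower, with 10 bright enough to be called. Over all genes that could be called, 4.45% were higher and 5.59% lower. The 3 were Fabp7, a fatty acid binding protein of radial glia (2.95), Prom1, the surface protein CD133 (1.16), and Ncam1, a neural cell adhesion molecule (1.05). That value of Ncam1 is from its brightest probe, and the other 2 gave -0.33 and -0.17. With spike-in scaling Prom1 (0.51) and Ncam1 (0.51) fell under the 2-fold rule. With AZA, 7 of the 12 were lower than in ELA and 1 was higher, with 11 bright enough to be called. Over all genes that could be called, 11.4% were lower and 14.3% higher. Cdh2, which encodes N-cadherin, was at -3.36, Prom1 at -3.10 and Fabp7 at -3.08, and Lix1, named after its values were seen, was the 1 higher (1.26). With CHQ, 4 were lower and 1 was higher, with 10 bright enough, against 11.9% lower and 14.8% higher over all such genes. Fabp7 was at -2.79, Ina, which encodes the filament protein internexin, at -2.42 and the glutamate transporter gene Slc1a3 at -2.27. Vim, named after its values were seen, was 2.02 higher. Fabp7 had 6.76 in ES cells, 6.63 with AZA and 6.91 with CHQ. The lowest levels well above background on those arrays were 6.51, 6.41 and 6.43. Over the other settings of background, scaling and source, Fabp7 ran from 2.345 to 4.25 in ELA minus ES. It ran from -4.86 to -3.25 with AZA and from -3.95 to -2.96 with CHQ. Cdh2 had 11.28 in ES cells, 12.01 in ELA, 8.65 with AZA and 12.08 with CHQ, so that only the AZA array was low. Its second probe gave -3.25 with AZA and -0.13 with CHQ. Within the treated slide, 5 of 12 were higher with CHQ than with AZA and none was lower, with 10 bright enough. These were led by Cdh2 (3.43), Ncam1 (2.34) and Ptprz1 (1.55). Of all genes that could be called, 5.53% were higher and 4.81% lower there. For Ncam1 the second probe gave only 0.14 in that comparison, and 0.39 with AZA in place of -1.86. The list medians over the members that could be called were 0.67, -1.715, -0.38 and 0.88 in the 4 comparisons. The first of these was 0.04 with spike-in scaling.

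No neuronal gene was called higher with either drug than in ELA. Of 10, 2 were higher in ELA than in ES cells, Elavl3 (1.27) and Rbfox3 (1.19), which encode neuronal RNA-binding proteins, and 1 was lower, the neurofilament gene Nefl (-1.94). With spike-in scaling Elavl3 (0.70) and Rbfox3 (0.65) both fell under the 2-fold rule. With AZA, 6 were lower and none was higher than in ELA, with Tubb3, the neuronal tubulin, at -2.65, Rbfox3 at -2.57 and Map2, a microtubule-associated protein gene, at -2.13. With CHQ, 4 were lower and none higher, with Tubb3 at -3.29 and Rbfox3 at -2.81, whereas Map2 was 2.57 higher with CHQ than with AZA. Over the members that could be called, the list medians were 0.16 for ELA over ES cells, -1.26 with AZA and -0.80 with CHQ, beside -0.02, -0.07 and -0.09 over all genes that could be called. The first turned to -0.38 with spike-in scaling.

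The Notch pathway lies upstream of Hes5. Among 5 ligand genes, Dll1 was 1.55 higher in ELA than in ES cells, 1.06 higher with AZA than in ELA and 2.28 higher with CHQ. Its levels were 7.97, 9.52, 10.59 and 11.81 in ES cells, ELA, AZA and CHQ. Jag1 was 2.04 and 1.84 higher with AZA and CHQ, Jag2 was 1.33 higher with CHQ, and no ligand was called lower in any comparison. Among 11 receptors and effectors, AZA had 4 higher and 2 lower than ELA, and CHQ had 3 in each direction. The receptor gene Notch1 had 10.04, 8.75, 11.73 and 13.03, which is 2.98 and 4.28 higher with the drugs than in ELA on its brighter probe. Its dim second probe gave -0.53 and -0.09. Notch3 was 1.33 higher with AZA and 2.64 higher with CHQ. In the other direction, Notch2 was at -2.45 and -1.05 on its brighter probe, while its dim second probe gave -0.74 and -0.48. Maml3, a coactivator of the Notch complex, was at -3.95 and -2.53, with smaller values on its dimmer probes (-1.26 and -1.10 on the second). The gene of the DNA-binding partner Rbpj was lower in ELA than in ES cells (-1.34) and was called with neither drug.

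Of the 9 other Hes and Hey genes and Notch targets listed beside Hes5, 6 could be called in each comparison with ELA. Between the treated arrays, 7 could be called. None of them was called higher in ELA than in ES cells, and Hes3 was lower (-1.35). With AZA none of them was called in either direction, and Hey1 was at -0.68. With CHQ, Hey1 (-1.69) and Hes7 (-1.23) were lower and Nrarp, a feedback inhibitor of Notch, was higher (1.63). Nrarp and Hey2 were 1.59 and 1.20 higher with CHQ than with AZA, and Hey1 was lower (-1.01). The difference between Hes5 and these relatives is given as values only, since no test was possible with 1 array per group.

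Proneural genes, the family of Neurog2, were mostly too dim to be called. Of 7, 3 could be called, and none was called between ELA and ES cells. On their brighter probes, Neurod1 was higher (1.07 with AZA and 1.27 with CHQ) and Neurog3 was lower (-1.06 and -1.81). The second probe of Neurod1 gave 0.62 and 0.82, both under the 2-fold rule. With spike-in scaling the AZA value of Neurod1 was 0.97. The second probe of Neurog3, well above background on no array, gave -0.16 and -0.13. The Id genes, whose products block proneural factors and are targets of BMP signalling, had called members in every comparison. In ELA, Id1 (-3.98), Id2 (-2.96) and Id4 (at least 3.67-fold) were lower than in ES cells. Id3 was not called there (0.26) but was lower with AZA (-2.33) and CHQ (-3.33), and Id1 was lower again (-1.15 and -1.41). Id4 went the other way and was at least 15.1-fold higher with AZA and at least 6.92-fold higher with CHQ than in ELA, where it was not well above background (6.84).

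**Figure D3:**
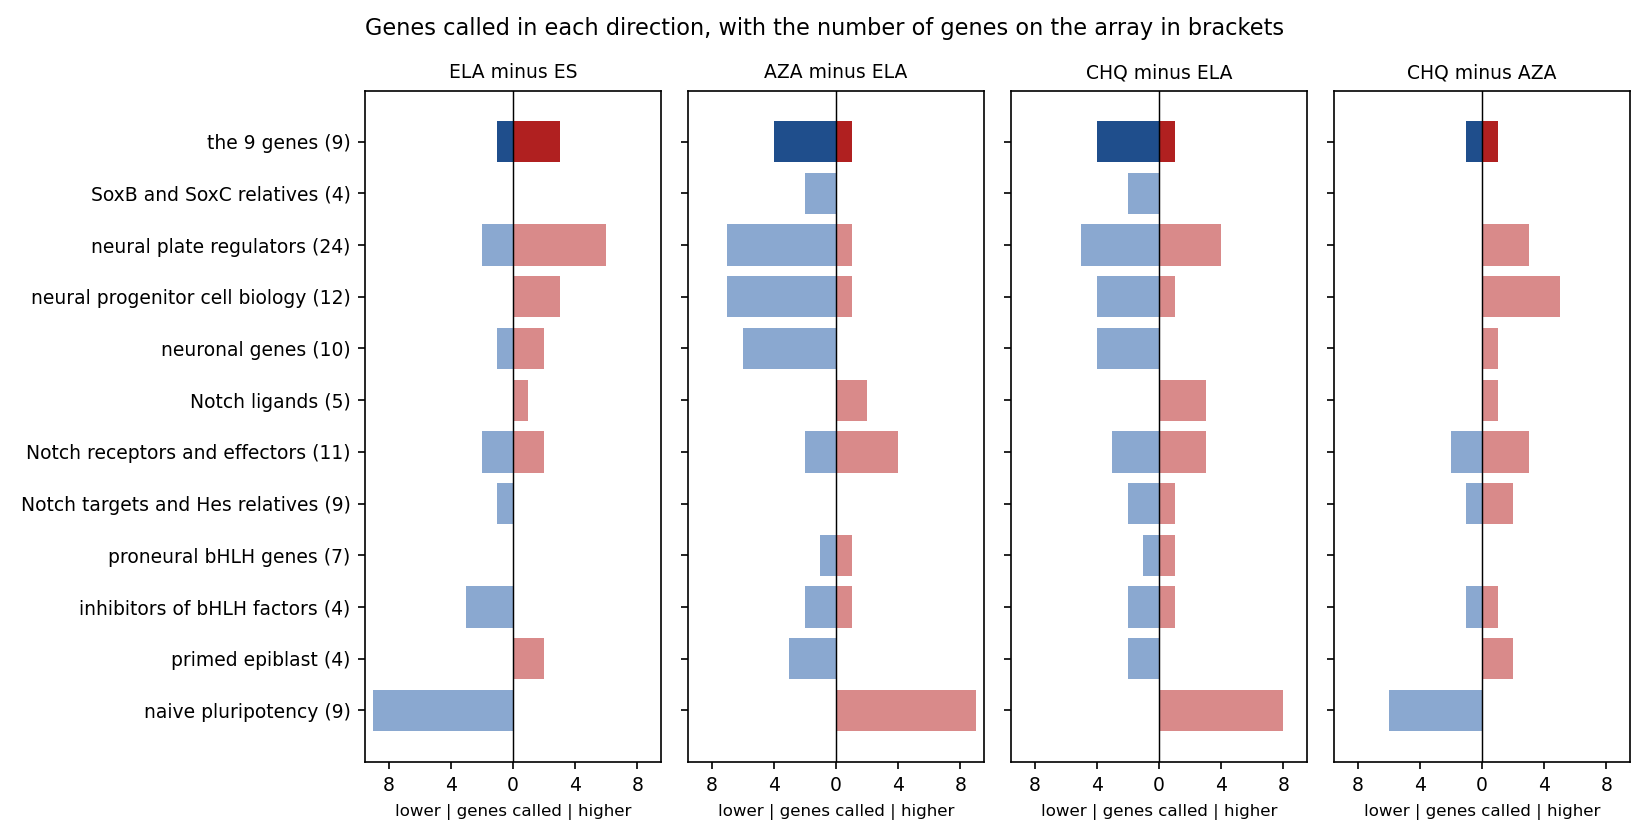
Number of genes called higher (right of 0) and lower (left of 0) for the 9 genes and for 11 lists of related genes in the 4 comparisons, with the number of genes on the array in brackets. The progenitor and neuronal genes that were called lie mostly on the lower side with the drugs, 7 and 6 genes with AZA and 4 and 4 with CHQ, and naive pluripotency genes on the higher side, 9 and 8.

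Some markers of other states were called in the same comparisons. All 9 naive pluripotency genes were higher with AZA than in ELA and 8 were higher with CHQ, with Tbx3 at 5.09 and 3.56 and Nr0b1 at 4.46 and 3.35. The median level of this list was 13.13 in ES cells, 9.498 in ELA, 13.69 with AZA and 12.57 with CHQ, so ELA was the low array where Sox3, Sox11, Hes5 and Nes were high. Between the treated arrays, 6 of the 9 naive genes were lower with CHQ than with AZA and none was higher, with a list median of -1.32. Nanog was at -2.85 there and at 0.01 between CHQ and ELA, although its second probe gave 0.53 and -1.02. That probe also gave -1.55 for AZA minus ELA and 0.23 for ELA minus ES, against 2.86 and -2.50 on the brighter one. Of the 4 primed epiblast genes, 3 were lower with AZA and 2 with CHQ, with Fgf5 at -2.54 and -1.15. Pou5f1 and Sox2 were called in no comparison. Their part in the values of the 9 genes was not tested.

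Genes of other lineages were measured as well. Of 7 primitive endoderm genes, Gata6 (at least 8.87-fold) and Sox17 (at least 6.7-fold on its brighter probe) were higher with CHQ than in ELA. Neither was well above background in ELA, and the second probe of Sox17 gave a smaller difference of 1.375. Foxa2 (-1.01) and Dab2 (-1.34) were lower with CHQ. With AZA, Foxa2 (-1.81) and Dab2 (-1.47) were lower too. Foxa2 was 1.81 higher in ELA than in ES cells, so its brighter probe, like Sox3, Sox11 and Hes5, was highest in ELA, and its dim second probe gave 0.65, -0.71 and -0.39 in these 3 comparisons. The median level of that list was 6.82 in ES cells, 6.76 in ELA, 7.05 with AZA and 7.73 with CHQ, with 4, 3, 7 and 6 of its genes well above background. Of 5 trophoblast genes only Tfap2c could be called in the comparisons with ELA, where it was 2.11 and 3.44 higher with the drugs. The median level of the trophoblast list was 7.63 in ES cells, 6.39 in ELA, 7.26 with AZA and 7.57 with CHQ. On these arrays 4, 1, 3 and 4 of its genes were well above background. In the surface ectoderm list, Krt8 (-1.80 and -1.20) and Krt18 (-1.49 and -2.23) were lower with AZA and CHQ, and Tfap2a was higher (1.92 and 1.51). Of 7 mesendoderm genes none was called with AZA, and with CHQ only Kdr was lower (-1.05), although its second probe gave 0.83. Of 5 neural crest genes, none was called with AZA, and with CHQ Snai2 was higher (1.55) and Foxd3 lower (-1.02). The part of these markers in the values of the 9 genes was not tested.

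Centred log2 profiles across the 4 arrays were compared for 13225 other genes with an ordinary symbol that stood well above background on every array. Nearest to the median profile of the 9 genes were Msl1, Kctd17, Nlrp3, Rorb and Irgm2, at Euclidean distances of 0.0349 to 0.0639. Of these, Nlrp3 (6.648 to 7.442) and Rorb (6.695 to 7.465) were faint, with levels under 7.5 on every array. For Sox3 the nearest were Cfap299 (0.246), Egr4 (0.36) and the Notch coactivator gene Maml3 (0.409). For Sox11 they were St8sia3 (0.26), Shd (0.268) and Rragd (0.335). The nearest to Hes5 was Prxl2a (0.0906), with 11.86 in ES cells, 13.93 in ELA, 12.19 with AZA and 10.74 with CHQ, followed by Aqp5 and Cidea. Cblb (0.0716), Ccnj and Tbc1d16 were nearest to Nes, and Fry (0.101), Rex2 and Soat2 to the brighter probe of Sox21. With only 4 points, which share their arrays and slides, such distances describe the profiles and nothing more.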

How the data were processed

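For each spot of the Cy3-labelled Agilent mouse arrays, the authors deposited the mean intensity and the median local background intensity, not normalised between arrays. The submitters' processing notes name Agilent Feature Extraction 9.1 and limma. A deposited table of log2 values, background-corrected and quantile-normalised by the authors, served as an alternative.

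Here, intensities were corrected with normexp (offset 50) and quantile-normalised with limma 3.58.1 in R 4.3.3. Control spots and outlier-flagged spots were left out, which removed 559 of 55681 probes, and no spot was saturated. Spots of a probe were averaged and the brightest probe stood for a gene. Names came from the array, updated through RefSeq for 26576 probes, and coordinates are those of the array (mm9). Without an mm9 annotation, exons and UTRs were not assigned. A bound ("at least") sets the brighter array against the higher of the lowest signal well above background on the dimmer one and the dim probe's own value there.

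With 1 array per group no p-value is given. The 9 genes and the 19 gene lists were chosen with earlier results of these data known. From each list at most 3 called genes per comparison, by size, are named, besides all 9 genes and Sox2, and a gene named in 1 comparison may be given in the others; 1 gene that this rule would name is not reported here. In all, 10 other settings were tried, and 1 more was added after seeing the data. A knockdown array mentioned in the labels was not analysed here.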

Additional observations from a re-analysis of the deposited data

How the results depend on the processing

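Sox3, Sox11 and Hes5 kept the direction and the call under every alternative tried on values, for ELA minus ES, AZA minus ELA and CHQ minus ELA. The median difference of the 9 genes for ELA minus ES (0.39) was 0.60 without background correction, 0.84 with the intensity corrected within the array, 0.64 with scaling to the 75th percentile, 0.084 with scaling to the E1A spike-in probes, 0.86 in the authors' table and 0.63 with a normexp offset of 16. For AZA minus ELA (-1.17) it was -1.75, -1.46, -1.53, -1.76 and -1.51 in the within-array, 75th percentile, spike-in, authors' and offset 16 settings, -0.63 with the mean over probes, and -0.84 with the dimmer probe of Sox1, Sox11, Sox21 and Pax6, a setting chosen after seeing the data. For CHQ minus ELA (-1.24) it was -1.50 with the spike-in, -0.81 with the mean over probes and -0.92 with the dimmer probes. With the size rule at 1.5, genes called fell from 844 and 1060 to 325 and 514 (ELA minus ES, higher and lower), and 0 of the 9 genes were called in CHQ minus AZA, and Nes was no longer called in CHQ minus ELA. Sox21 turned to -0.56 with AZA and -0.54 with CHQ on its dimmer probe. Its call for ELA minus ES was lost with the within-array intensity (-2.20) and the authors' table (-2.22), where the mean level lay under 7.5 although the difference was larger, and with the mean over probes (-0.87) and the dimmer probe (-0.02), where it was smaller. Its call with CHQ was lost in the authors' table (2.95) through the level, and with the mean over probes (0.92) and the dimmer probe. Spike-in scaling moved the median of all genes that could be called to -0.59, -0.26, -0.39 and -0.18 in the 4 comparisons. That scaling took Nes in ELA minus ES from 0.85 to 0.19 and turned Sox1 there to -0.17. Of 163 called differences of genes named from the lists, 163 kept their sign in all 6 settings of background, scaling and source, and 14 fell under 2-fold in at least 1, among them Dll1, Prom1, Ncam1, Elavl3 and Rbfox3 in ELA minus ES with the spike-in. The cause of these shifts was not tested. No paired analysis was possible because each group has 1 array. Signal over background limits Pou3f2, Neurog2 and Pax6, which lay near it.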
